A study of Homo sapiens with 6 samples.

Results

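The genes described here are 42 genes of DNA repair, chosen by symbol from the 63677 gene rows of the count table: 20 of homologous recombination, 13 of the Fanconi pathway, 3 of mismatch repair and 6 of the damage checkpoint. They were followed in T24, a bladder cancer cell line derived from an invasive high-grade transitional cell carcinoma. The siRBM3 group (3 libraries, replicates 3, 4 and 5) received a pool of the siRNAs s11858 and s11860 against RBM3, which encodes an RNA-binding protein, and the control group (3 libraries, replicates 1, 3 and 5) received a non-targeting siRNA. In both groups the siRNA was present at 25 nM with a lipid reagent for 4.5 h, after which cells recovered overnight in full medium and no chemotherapy was added. Polyadenylated RNA was sequenced from stranded single-end libraries. All samples are of 1 cell line and 1 time, and RNA was measured in bulk, so fewer cells that express a gene and less of its RNA per cell cannot be told apart.

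Homologous recombination repairs double-strand breaks by trimming the broken ends and copying the sister chromatid, and is therefore active after DNA has been replicated. The Fanconi pathway removes crosslinks between the strands, which are among the lesions that cisplatin makes. A nuclear core complex attaches ubiquitin to the FANCD2 and FANCI pair, and later steps hand the break to recombination. Mismatch repair corrects copying errors behind the replication fork, and the checkpoint kinases ATM and ATR signal damage to CHEK2 and CHEK1. Many of these genes are transcribed most in late G1 and S phase, and E2F factors, which bind short GC-rich sequences near start sites, are known regulators of several of them.

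The letters of E2F sites were searched in the RefSeq promoter windows of GRCh38.p14, each from 250 bases before to 50 bases after a start site. The sequence TTCGCGC was searched on both strands, as were TTGGCGC, likewise TTCCCGC and also TTGCCGC. Of the 41 tested genes, 37 had a window, and none was matched for WRN, NBN, RAD54B and FANCI. RAD51D was not tested and is left out of the counts by gene. The following windows of 29 bases are shown because they belong to the genes with an unadjusted p under 0.05 described below. Each is written on the gene's own strand, with the E2F letters in capitals.
EXO1: aaggtcagcctTTCGCGCgctgtgtaggc
FANCD2: cgtcgggcctgGCGGGAAagtcgaaaact
FANCG: cctcggtggaaGCGGGAAcccaggaggac
FANCF: gaagtagggccTTCGCGCacctcatggaa
XRCC3: ggagcaggacgGCGGGAAgaggagtgcgg
BLM, upstream: agcctgaggggGCGGGAAcagatgtccga
BLM, at the start site: gcaagcttccgGCGGGAAgtgagccaggg
BLM, downstream: tgagccagggcTTGGCGCggcggccgtgg

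On GRCh38.p14 these windows lie at chr1:241848198-241848226 (plus strand, EXO1), chr3:10026424-10026452 (plus, FANCD2), chr9:35080009-35080037 (minus, FANCG), chr11:22625805-22625833 (minus, FANCF), chr14:103715436-103715464 (minus, XRCC3) and, for BLM on the plus strand, chr15:90717261-90717289, chr15:90717338-90717366 and chr15:90717357-90717385. The letters began within 5 bases of the start site in EXO1, FANCD2, FANCF and XRCC3, and 84 bases before it in FANCG. The letters of FANCD2, FANCG and XRCC3 (GCGGGAA) are the reverse complement of TTCCCGC. CHEK2 and ATM had windows without these letters. In all, 22 of the 37 genes (59.5%) had E2F letters in at least 1 window, compared with 24.6% of the 10780 tested genes with a window. Counted by window, 31 of 55 (56.4%) held them, against 18.6% of the 15705 windows of tested genes and 13.0% of all 35116 windows. Among the groups these were 9 of 16 recombination genes, 9 of 12 Fanconi genes, 3 of 3 mismatch repair genes and 1 of 6 checkpoint genes (MDC1). The CHR letters TTTGAA were in 6 of the 37 genes (16.2%, against 13.8% of tested genes) and CCAAT in 20 (54.1%, against 42.9%). A match is a description of the letters and not of binding.

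The silenced gene RBM3 was at 225, 368 and 301 CPM (read counts scaled to library size and TMM factors) in control replicates 1, 3 and 5 and at 54.1, 90.1 and 58.4 CPM in siRBM3 replicates 3, 4 and 5, without overlap (log2 fold change -2.14, standard error 0.24). Library totals ranged from 23603992 to 45098612 counts. The deepest, siRBM3 replicate 3, also had the highest mitochondrial share, 9.4% against 1.63 to 4.15% in the other libraries. Of the marker lists, 5 of 5 epithelial genes were above 1 CPM in every library, as were 3 of 7 urothelial genes (GATA3, PPARG and UPK2), while KRT5, KRT20, UPK1B and UPK3A were near 0. None of 4 leukocyte markers reached 1 CPM, and of 2 endothelial markers in the table CDH5 was at 28.7 to 36.8 CPM and VWF below 1 CPM.

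Most of the repair genes were lower in siRBM3 cells, by small amounts. Of the 42, 41 passed the filter on low counts, and 36 of these had a log2 fold change below 0, with a median of -0.28 and a range from -1.20 (FANCG) to 0.33 (FANCF). Over all 15099 genes tested the median was -0.01 and 51.5% were below 0. None of the 41 passed both a fold change of 1.5 and an FDR below 0.01 in the quasi-likelihood test of edgeR (Benjamini-Hochberg FDR). The share of all genes that passed was 0% in either direction. The silenced gene RBM3 itself had an FDR of 0.082, the smallest value reached by any gene. The lack of calls therefore does not set the repair genes apart from other genes. The smallest FDR among the 41 was 0.131, for XRCC3. At an unadjusted p under 0.05 in the same test, 7 were lower (XRCC3, FANCG, EXO1, FANCD2, CHEK2, RAD54B and BLM) and 2 higher (FANCF and ATM), beside 6.58% and 6.56% of all genes tested. In 8 genes all siRBM3 libraries lay below all control libraries and in 2 above, where 9.93% and 9.98% of all genes did. With limma-voom, too, no gene of the set was called, and neither was RBM3 (FDR = 0.087). The DESeq2 Wald test called 2 of them lower, FANCG (adjusted p = 0.0041) and XRCC3 (adjusted p = 0.0032), beside 0.604% of the 12589 genes with an adjusted p in that direction, and none higher (0.667% of all). With 3 libraries against 3, the smallest two-sided p of an exact permutation test on 1 gene is 0.1.

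**Figure D1:**
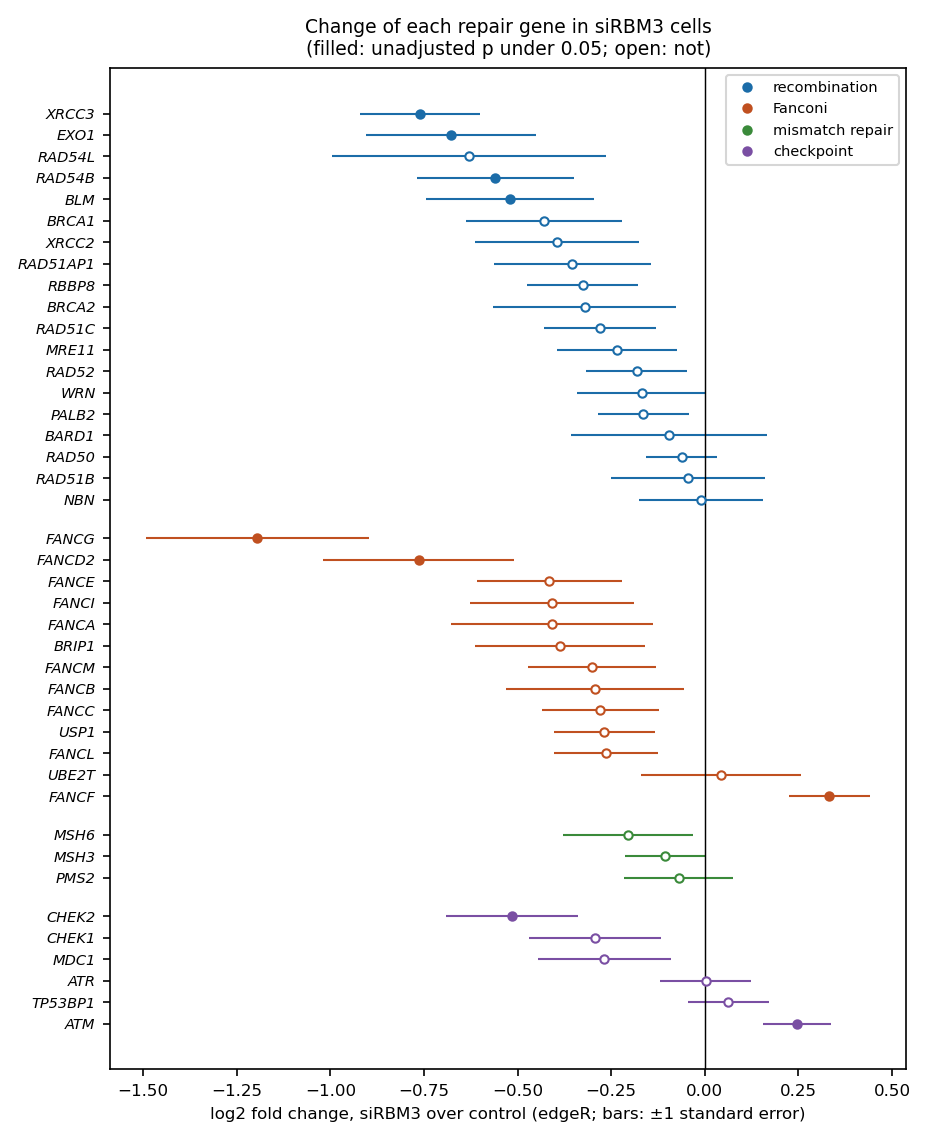
Each point is the edgeR log2 fold change of 1 repair gene (siRBM3 over control, x axis) with a bar of 1 standard error, coloured by group and filled where the unadjusted p was under 0.05. Of 41 points, 36 lie left of 0, from FANCG at -1.20 to FANCF at 0.33 on the right.

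The libraries did not share this evenly. The deviation of a gene in a library, its log2(CPM + 0.5) minus its mean over the 6 libraries, was averaged over the 41 genes. The averages were 0.19, 0.06 and 0.19 in control replicates 1, 3 and 5 and -0.40, -0.06 and 0.02 in siRBM3 replicates 3, 4 and 5. Thus siRBM3 replicate 3 stood well below the others, and siRBM3 replicate 5 was close to control replicate 3. In 29 of the 41 genes siRBM3 replicate 3 was the lowest of the 6 libraries and in 0 the highest. Over all genes it was the lowest in 19.4% and the highest in 19.0%. Control replicates 1 and 5 were the highest in 16 and 13 of the 41 genes, beside 21.7% and 15.9% of all genes. Without siRBM3 replicate 3, 34 of the 41 genes were still lower, the median was -0.17, and 6 were lower at an unadjusted p under 0.05 in edgeR, beside 5.35% of all genes. When control replicate 1 was left out as well, a comparison added after the data were seen, 34 were lower with a median of -0.12. Without control replicate 5 only FANCG and XRCC3 were lower at an unadjusted p under 0.05 (2 genes, beside 4.51% of all), and without siRBM3 replicate 5 there were 11, beside 5% of all genes.

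**Figure D2:**
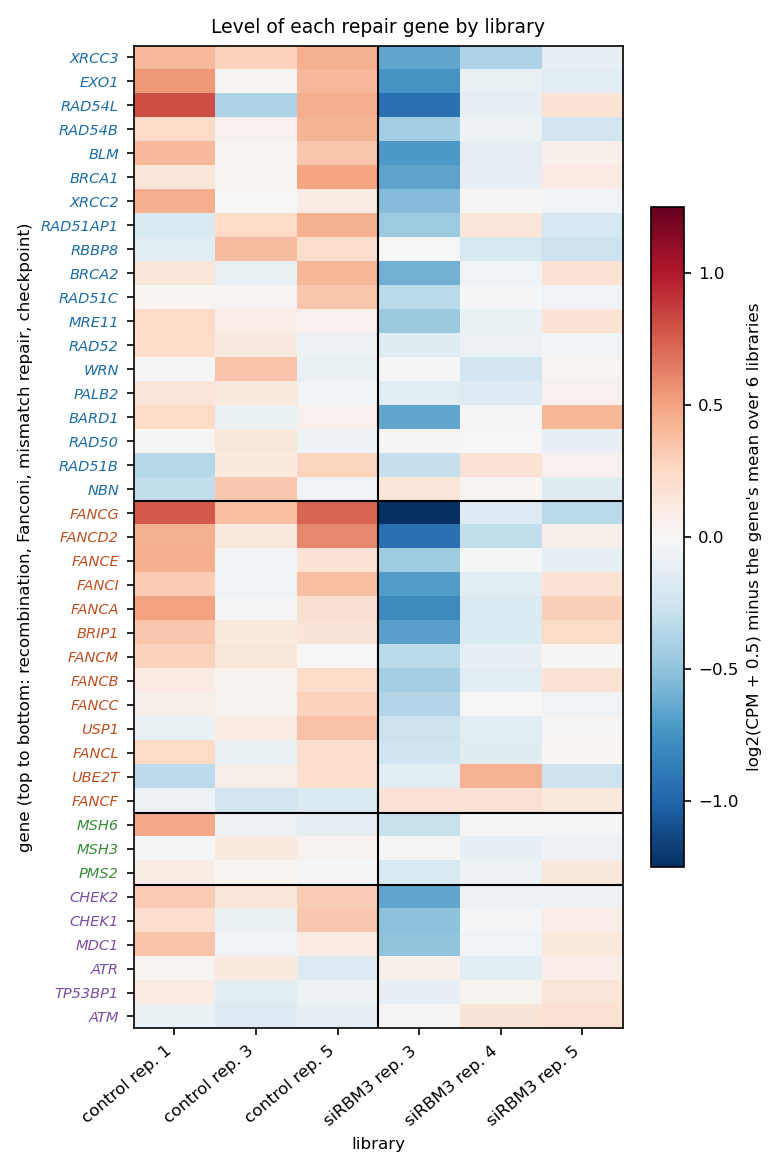
Rows are the 41 repair genes grouped from recombination at the top to checkpoint at the bottom, columns are the 6 libraries, and colour is log2(CPM + 0.5) minus the gene's mean (red above, blue below). The column of siRBM3 replicate 3 is the bluest, being the lowest of the 6 libraries in 29 genes.

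Genes of the S-phase list were mostly lower as well, while the direction of the G2/M list depended on the libraries. In the S-phase list of Seurat, with the repair genes of this set taken out, 34 of 36 tested genes were lower (median -0.38), 13 of them at an unadjusted p under 0.05 in edgeR, beside 6.58% of all genes. This median was between -0.54 and -0.19 after leaving out any 1 library, the latter without control replicate 1. Its average deviation was 0.51, -0.02 and 0.10 in control replicates 1, 3 and 5 and -0.53, -0.07 and 0.00 in siRBM3 replicates 3, 4 and 5, so that the groups overlapped. In the G2/M list 46 of 54 genes were lower (median -0.17), with 1 lower and 1 higher at an unadjusted p under 0.05, beside 6.58% and 6.56% of all genes. That median was 0.08 without siRBM3 replicate 3, 0.04 without control replicate 5 and -0.43 without siRBM3 replicate 5. There, control replicate 5 (0.48) and siRBM3 replicate 5 (0.37) were high and siRBM3 replicate 3 was at -0.77. The part of cell cycle phase, and of the depth and mitochondrial share of siRBM3 replicate 3, in the lower repair genes was not tested.

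**Figure D3:**
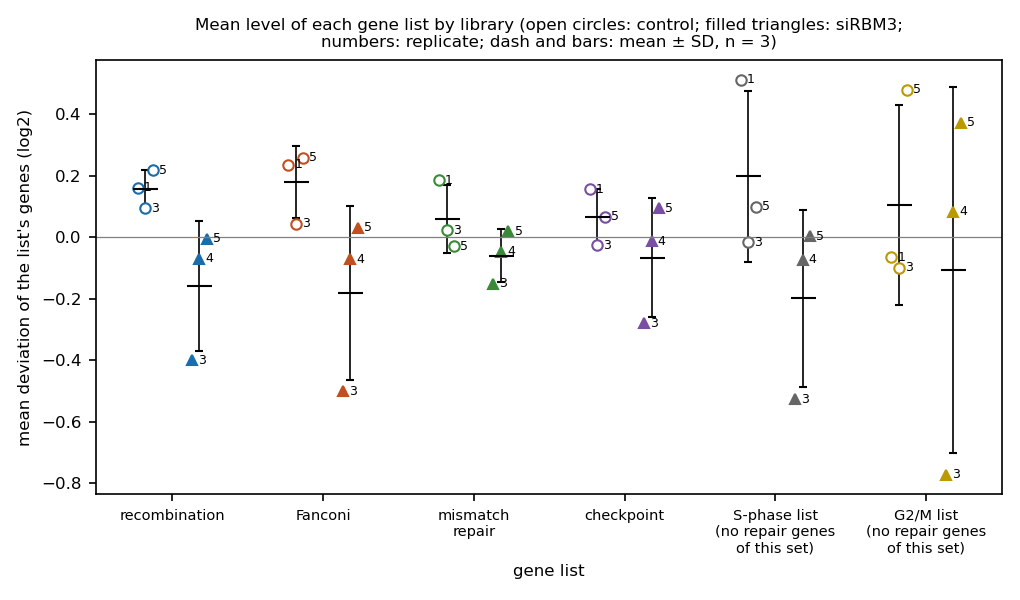
For each gene list on the x axis, the mean deviation of its genes (log2) is plotted for each control (open circles) and siRBM3 library (filled triangles), with the group mean ± SD (n = 3) in black. In all 6 lists siRBM3 replicate 3 is the lowest triangle, at -0.40 for recombination, -0.50 for Fanconi and -0.77 for G2/M.

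All 19 tested recombination genes were below control on average (median log2 fold change -0.32), of which 4 had an unadjusted p under 0.05 (6.58% of all genes) and 4 had groups that did not overlap (9.93% of all genes). RAD51D, a paralog of the strand exchange recombinase, was listed at 0 counts in every library and could not be tested. A read-through gene that overlaps it (ENSG00000267618) had 145 to 235 counts, and 9.47% of the exon bases of RAD51D overlap other annotated genes. How reads on overlapping genes were assigned is not known here, and no level is given for RAD51D.

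The genes of strand exchange held the smallest p. XRCC3 (ENSG00000126215) is another paralog of the recombinase, on chromosome 14 of GRCh37 from 104163946 to 104181841, minus strand. It was at 27.3, 25.1 and 28.0 CPM in control replicates 1, 3 and 5 and at 12.9, 15.6 and 19.1 CPM in siRBM3 replicates 3, 4 and 5. No siRBM3 library reached the lowest control library, and the means were 26.8 ± 1.54 and 15.8 ± 3.11 CPM (SD, n = 3). This was a 1.69-fold lower level (log2 fold change -0.76, standard error 0.16, edgeR unadjusted p = 0.0012), and after leaving out any 1 library it was between -0.92 and -0.63. However, 76.7% of the exon bases of XRCC3 overlap KLC1 on the opposite strand, and the strand setting of the counting is not known here. KLC1 itself was at 34.3 to 41.9 CPM in control and 29.7 to 38.9 CPM in siRBM3 cells (log2 fold change -0.17), with overlapping groups.

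RAD54B, a DNA translocase that helps the recombinase invade the partner strand, had the fewest CPM of the genes with an unadjusted p under 0.05. It was at 4.20, 3.63 and 4.86 CPM in control and 2.46, 3.32 and 2.87 CPM in siRBM3 replicates 3, 4 and 5. Groups did not overlap (log2 fold change -0.56, standard error 0.21, edgeR unadjusted p = 0.0274), but 66.0% of its exon bases overlap FSBP, and without siRBM3 replicate 3 its unadjusted p was 0.0995. Its relative RAD54L had a similar fold change with a wider error (-0.63, standard error 0.37), since control replicate 3, at 9.49 CPM, lay below siRBM3 replicates 4 and 5. Among the other paralogs, RAD51C was at 20.1 to 25.2 CPM in control and 15.5 to 19.4 CPM in siRBM3 cells, again without overlap (log2 fold change -0.28, edgeR unadjusted p = 0.0955). XRCC2 (-0.39), RAD51AP1 (-0.35), RAD52 (-0.18) and RAD51B (-0.04) had overlapping groups.

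Of the genes that trim broken ends, the nuclease EXO1 and the helicase BLM were lower at an unadjusted p under 0.05. EXO1 (ENSG00000174371, chromosome 1 of GRCh37, 242011269 to 242058450, plus strand) was at 14.4, 9.98 and 13.1 CPM in control and 5.65, 9.13 and 8.80 CPM in siRBM3 replicates 3, 4 and 5. Its highest siRBM3 library stayed just under the lowest control library (log2 fold change -0.68, standard error 0.23, edgeR unadjusted p = 0.0162). BLM was at 16.3, 12.4 and 15.7 CPM in control and 7.19, 11.1 and 12.8 CPM in siRBM3 cells. Here siRBM3 replicate 5 exceeded control replicate 3, and the p was close to the limit (log2 fold change -0.52, standard error 0.22, edgeR unadjusted p = 0.0478). Without siRBM3 replicate 3 the log2 fold change of BLM was -0.31 and its unadjusted p 0.134.

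In the complex that first holds the ends, NBN and RAD50 differed little between the groups, while MRE11 was lower with overlapping groups. NBN, its signalling subunit, had the highest level per length of the recombination genes (19.97 CPM per kb of transcript in control and 19.82 in siRBM3 cells). It was at 73.6, 115 and 88.4 CPM in control and 101, 92.3 and 81.6 CPM in siRBM3 replicates 3, 4 and 5. Its 3 siRBM3 values lay inside the control range (log2 fold change -0.01, standard error 0.17). Its partners RAD50 and MRE11 gave -0.06 and -0.23, the nuclease partner RBBP8 -0.33 and the helicase WRN -0.17, all with overlapping groups. The mediators that load the recombinase were lower with overlapping groups as well. BRCA1 had a mean of 41.0 ± 7.12 CPM in control and 30.5 ± 7.87 CPM in siRBM3 cells (SD, n = 3; log2 fold change -0.43, standard error 0.21). For BRCA2 the means were 8.66 ± 1.63 and 6.97 ± 1.96 CPM (-0.32, standard error 0.24). PALB2, which joins them, gave -0.16, and BARD1, the partner of BRCA1, gave -0.10 with siRBM3 replicate 5 the highest of all libraries at 17.0 CPM.

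In the Fanconi group 11 of 13 genes were lower (median -0.30), 2 lower and 1 higher at an unadjusted p under 0.05, beside 6.58% and 6.56% of all genes. FANCG (ENSG00000221829), a scaffold of the core complex on chromosome 9 of GRCh37 from 35073832 to 35080001, minus strand, had the largest fold change of the whole set. It was at 47.2, 35.8 and 45.8 CPM in control replicates 1, 3 and 5 and at 10.3, 24.5 and 21.7 CPM in siRBM3 replicates 3, 4 and 5. All siRBM3 libraries were below all control libraries, with siRBM3 replicate 3 the lowest by far. The mean was 2.29-fold lower (42.9 ± 6.18 against 18.9 ± 7.53 CPM, SD, n = 3; log2 fold change -1.20, standard error 0.30, edgeR unadjusted p = 0.0039, FDR = 0.175). Without siRBM3 replicate 3 it was -0.89 (edgeR unadjusted p = 5.2e-04), and over all single libraries left out it ranged from -1.43 to -0.89. No exon base of FANCG overlaps another gene of the table.

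FANCF, an adaptor of the same core complex, went the other way. It was at 23.3, 20.7 and 21.5 CPM in control and 27.8, 27.8 and 27.0 CPM in siRBM3 replicates 3, 4 and 5, a narrow range above every control library (log2 fold change 0.33, standard error 0.11, edgeR unadjusted p = 0.0148, FDR = 0.261). When libraries were scaled by their totals alone it was 0.28 with an unadjusted p of 0.0703. The remaining subunits of the core complex and its anchor were between these: FANCE at -0.42, FANCA at -0.41, FANCM at -0.30, FANCB at -0.29, FANCC at -0.28 and FANCL, the ubiquitin ligase, at -0.26. Among them only FANCC had groups that did not overlap, 13.8 to 16.6 CPM in control and 10.4 to 13.5 CPM in siRBM3 cells.

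The substrates of the core complex were lower too. FANCD2 (ENSG00000144554, chromosome 3 of GRCh37, 10068054 to 10143616, plus strand) was at 24.7, 19.8 and 27.6 CPM in control and 9.21, 14.5 and 18.9 CPM in siRBM3 replicates 3, 4 and 5. Groups did not overlap, although siRBM3 replicate 5 came close to control replicate 3 (log2 fold change -0.76, standard error 0.25, edgeR unadjusted p = 0.0165, FDR = 0.271). Without siRBM3 replicate 3 the value was -0.52. Its partner FANCI gave -0.41 (standard error 0.22) with overlapping groups. USP1, which removes the ubiquitin again, was at 86.6 to 119 CPM in control and 76.3 to 93.1 CPM in siRBM3 cells (-0.27), and the helicase BRIP1 gave -0.39. UBE2T, the enzyme that supplies the ubiquitin, had the highest level per length of all 41 genes (32.4 CPM per kb in control, 33.4 in siRBM3 cells). It was at 22.5, 29.8 and 33.0 CPM in control and 25.7, 38.5 and 23.6 CPM in siRBM3 replicates 3, 4 and 5, with no direction common to the libraries (log2 fold change 0.04, standard error 0.21, and -0.0009 when scaled by library totals alone).

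**Figure D4:**
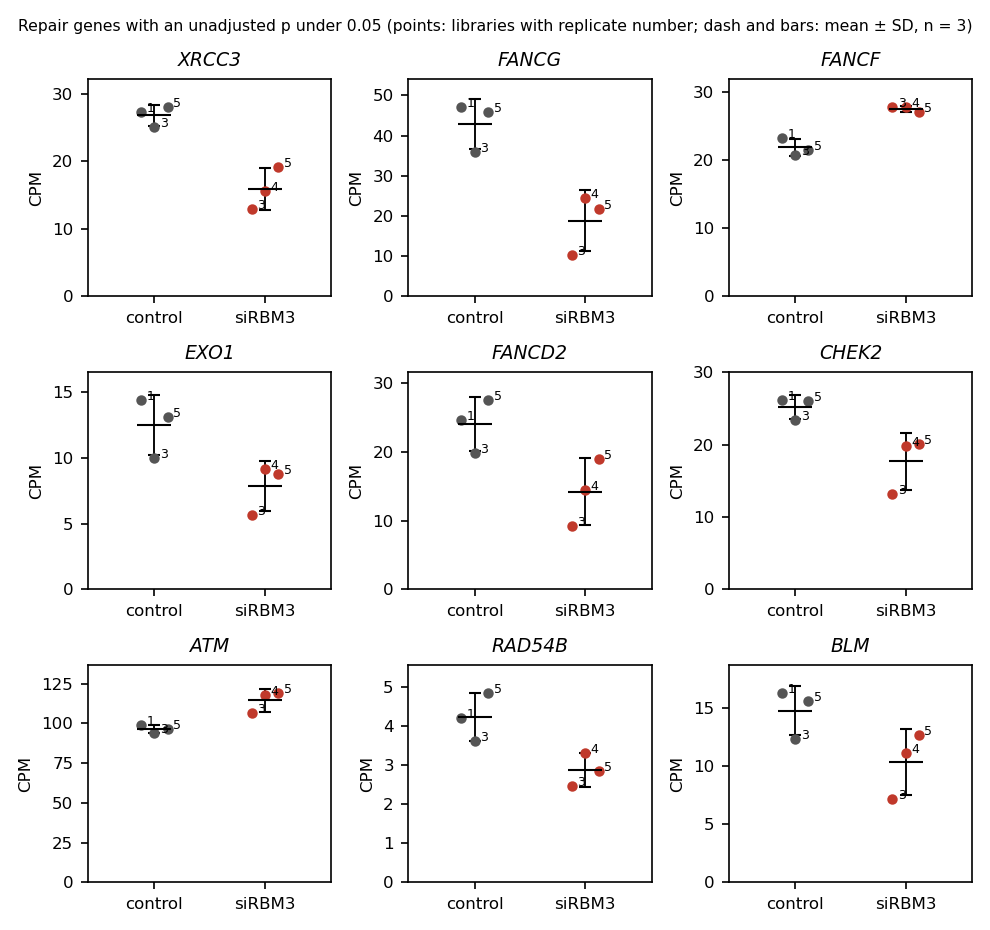
CPM of the 9 repair genes with an unadjusted p under 0.05, ordered by p, with 1 point per library labelled with its replicate number and the group mean ± SD (n = 3). The groups do not overlap in 8 of the panels and do overlap in that of BLM, where siRBM3 replicate 5 (12.8 CPM) exceeds control replicate 3 (12.4 CPM).

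In the 3 mismatch repair genes the groups overlapped and the median was -0.11. MSH6, which with its partner recognises single mispaired bases, had the highest level per length of the 3 (20.6 CPM per kb in control) and also the smallest p. It was at 113, 76.7 and 74.2 CPM in control replicates 1, 3 and 5 and at 66.7, 81.9 and 80.3 CPM in siRBM3 replicates 3, 4 and 5. Only control replicate 1 stood above the siRBM3 libraries (log2 fold change -0.21, standard error 0.17, edgeR unadjusted p = 0.268), and without it the value was 0.01. MSH3, which recognises larger loops, was at 28.9 to 31.9 CPM in control and 27.3 to 29.6 CPM in siRBM3 cells (-0.11). PMS2, the nuclease subunit, was at 11.3 to 12.2 CPM in control and 9.94 to 12.7 CPM in siRBM3 cells (-0.07). The value of PMS2 is uncertain, as near-identical copies also carried reads, PMS2P1 with 185 to 391 and PMS2CL with 150 to 306 counts.

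The 6 checkpoint genes were divided, 3 lower and 3 higher (median -0.13). CHEK2 (ENSG00000183765, chromosome 22 of GRCh37, 29083731 to 29138410, minus strand), the kinase downstream of ATM, was at 26.2, 23.4 and 26.1 CPM in control and 13.2, 19.9 and 20.1 CPM in siRBM3 replicates 3, 4 and 5. No library of the groups overlapped (log2 fold change -0.51, standard error 0.18, edgeR unadjusted p = 0.0182, FDR = 0.276), and without siRBM3 replicate 3 it was -0.34. Per length it was at 13.7 CPM per kb in control, the highest of this group, and at 9.60 in siRBM3 cells, where CHEK1 was at 10.8. ATM itself was at 99.0, 93.7 and 96.6 CPM in control and 106, 118 and 119 CPM in siRBM3 cells, all above control (log2 fold change 0.25, standard error 0.09, edgeR unadjusted p = 0.0244, FDR = 0.303). With offsets for GC content and transcript length, added after the data were seen, ATM was at 0.08 (unadjusted p = 0.492). Scaling by library totals alone gave it 0.20 (unadjusted p = 0.147), and in 4 of the 6 comparisons without 1 library its unadjusted p was above 0.05. In the other branch ATR was level (0.00, standard error 0.12) and its kinase CHEK1 gave -0.29 with overlapping groups. The damage adaptors MDC1 and TP53BP1 gave -0.27 and 0.06.

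Side by side, the medians of the groups were -0.32 for recombination, -0.30 for Fanconi, -0.13 for the checkpoint and -0.11 for mismatch repair. Differences between the groups were not tested. Without siRBM3 replicate 3 they were -0.19, -0.20, -0.07 and -0.12 in the same order. Genes with E2F letters in a promoter window had a median of -0.37 (22 genes, 21 lower), and those with a window but no such letters -0.23 (15 genes, 11 lower). For all tested genes the corresponding medians were -0.03 and -0.01. The difference by E2F letters was not tested, and it was not taken without siRBM3 replicate 3. The letters were also spread unevenly over the groups, in 3 of 3 mismatch repair genes and 1 of 6 checkpoint genes. FANCF was the only gene with these letters that was higher, and CHEK2 had the lowest value among genes without them. The medians were -0.27 with and -0.29 without the CHR letters, and -0.28 both with and without CCAAT.

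**Figure D5:**
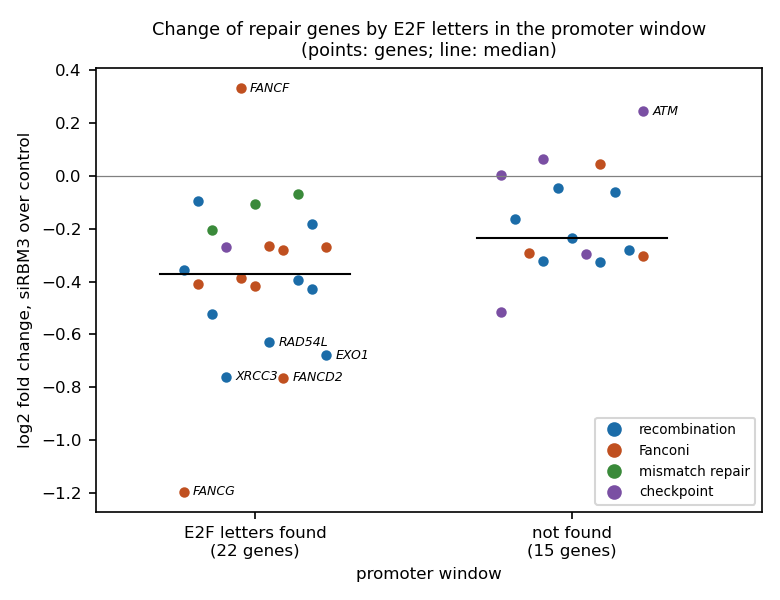
Points are the log2 fold changes (siRBM3 over control) of the 37 repair genes with a RefSeq promoter window, split by whether E2F letters were found, with the median as a line. The medians are -0.37 and -0.23, and FANCG (-1.20) and FANCF (0.33) are the extremes, both with the letters.

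Other genes of these pathways had a smaller median difference. Of 53 such genes 49 were tested and 40 were lower, with a median of -0.14, 3 lower and 1 higher at an unadjusted p under 0.05 in edgeR, shares no larger than the 6.58% and 6.56% of all genes. The 3 smallest p among lower genes were those of FAAP100, a core complex partner of FANCB and FANCL, TOP3A, the topoisomerase that acts with BLM, and RPA2, a subunit of the protein that coats single-stranded DNA. FAAP100 was at 59.6, 56.5 and 52.7 CPM in control and 43.97, 43.73 and 45.88 CPM in siRBM3 replicates 3, 4 and 5 (log2 fold change -0.34). TOP3A (-0.35) and RPA2 (-0.32) likewise had groups that did not overlap. Counted this way, 9 of the 49 tested genes were lower without overlap and 1 was higher, beside 9.93% and 9.98% of all genes. Among the 41 repair genes of the set these counts were 8 and 2. WEE1, the kinase that holds back entry into mitosis, was at 50.9, 57.6 and 78.3 CPM in control and 96.8, 81.4 and 111 CPM in siRBM3 cells, above control in every library (log2 fold change 0.63, standard error 0.18, edgeR unadjusted p = 0.0073, FDR = 0.214). Next among the higher genes were ABRAXAS1 (0.33), of the BRCA1-A complex, and the crosslink nuclease ERCC4 (0.14), both with overlapping groups. By function, 14 of 17 other recombination genes, 8 of 9 other Fanconi and crosslink genes, 2 of 2 other mismatch repair genes and 12 of 15 other checkpoint genes were lower. Of 6 end joining genes, which repair breaks without a template, 4 were lower (median -0.08), none with an unadjusted p under 0.05.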

How the data were processed

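Bulk RNA-sequencing of 3 control and 3 siRBM3 samples was analysed. The authors used BBDuk for trimming, STAR 2.5.2a for alignment to hg19/GRCh37, Picard to mark duplicates and featureCounts to assign reads to genes. The deposited values are raw whole-number counts per Ensembl gene. The annotation, the strand setting and the use of marked duplicates are not known here. Totals were 23603992 to 45098612 counts per library, and the number of libraries limits the precision. Nothing states that replicates were separate cultures, so p-values measure the spread between these samples. Libraries within a group differed by more than sampling noise, and each was counted as 1 sample. That difference does not show that they came from separate cultures.

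Symbols and positions came from GENCODE on GRCh37 (55665 of 63677 identifiers matched). Genes kept by filterByExpr (minimum count 10, minimum total count 15) were fitted with TMM factors and the quasi-likelihood F test of edgeR 4.0.16 (robust) with Benjamini-Hochberg adjustment over 15099 genes (FDR). A call was a fold change of 1.5 and an FDR below 0.01, the thresholds of the study's methods. DESeq2 1.42.0 (the study's tool) and limma-voom (limma 3.58.1) were alternatives, besides other scaling, filters, libraries left out and a replicate block. R 4.3.3 was used. CPM per kb used the canonical transcript. The scripts were tested on simulated data. Full values are given for RBM3, genes of the set with an unadjusted p under 0.05 and, per group, the smallest p and the highest level per length. For other pathway genes the 3 smallest p in each direction are named, and any further genes appear by their value within a group. The S-phase and G2/M lists are those of Seurat 5.3.0. The members and lists were chosen with earlier results of these data known.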

Additional observations from a re-analysis of the deposited data

How the results depend on the processing

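Between 34 and 38 of the 41 repair genes were lower in every setting tried, and their median stayed between -0.38 and -0.12. At a fold of 1.5 and an FDR below 0.01, 0 of them were called in edgeR (0% of all genes). In DESeq2 2 were called lower (beside 0.604% of all genes). Without the filter on low counts 3 were called (FANCD2, FANCG and XRCC3, beside 0.505% of all genes). Without that filter 17 genes were lower at an unadjusted p under 0.05, beside 4.73% of all genes. With each library left out in turn this count ranged from 2 (without control replicate 5, beside 4.51% of all genes) to 11 (without siRBM3 replicate 5, beside 5%). The count of genes higher ranged from 1 to 2. That of genes lower without overlap ranged from 10 to 21 (beside 13.3% to 18.4% of all genes, 14% at the 10 and 14.5% at the 21). In these fits 0 genes of the set were called, and RBM3 was not called either. Scaling by library totals alone left 0 genes higher at an unadjusted p under 0.05 and 1 higher without overlap, and offsets for GC content and length left 1 higher. For the counts of higher genes in these settings the share of all genes was not taken, so they are descriptions only. With control replicate 1 and siRBM3 replicate 3 both left out, chosen after seeing the data, the median was 0.043 for mismatch repair and -0.061 for the S-phase list.

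NBN and UBE2T, which were near 0, and MSH6, at -0.21, changed sign in some settings. NBN was at 0.015 in limma-voom and ranged from -0.15 to 0.18 with each library left out. UBE2T was at -0.0009 with library totals, -0.34 with the replicate block and -0.012 with both libraries left out, and ranged from -0.20 to 0.17 with each library left out. MSH6 was at 0.10 with both left out and ranged from -0.31 to 0.014, the latter without control replicate 1. The causes were not tested. The median of the G2/M list ranged from -0.43 to 0.08 with each library left out, and that of the S-phase list from -0.54 to -0.19. Of the other values, 262 values of named genes kept their direction and their side of the call threshold, and 13 of RBM3, XRCC3, FANCG, FANCD2 and WEE1 kept their direction and passed it.

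The groups share the replicate numbers 3 and 5 only. The deviations of same-numbered libraries correlated at 0.53 (replicates 3) and 0.09 (replicates 5). Between libraries of unlike number the correlations ran from -0.36 to 0.20. Nothing in the labels ties same-numbered libraries, and whether they were handled together is not known here. With the replicate number as a block, 3 genes were called (FANCG, RAD51AP1 and XRCC3, beside 1.26% of all genes) and 19 were lower at an unadjusted p under 0.05, beside 13.5% of all genes. In that fit a library whose number the groups do not share adds nothing to the contrast. These counts therefore rest on the libraries numbered 3 and 5 and not on all libraries.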
